A study of Mus musculus with 9 samples.

Results

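The genes described here are 36 members of mitochondrial and peroxisomal fatty acid oxidation, chosen by name from the carnitine shuttle, the beta-oxidation cycles of both organelles and peroxisomal alpha-oxidation, out of 24421 genes counted in 4T1 cells, a mouse mammary carcinoma line. By their textbook location 22 were placed in mitochondria and 14 in peroxisomes. RNA-seq had been done on 9 libraries in 3 conditions of 3 libraries each, all collected after 5 days of culture in medium with serum. The condition 3D_4T1_0 held cells grown as spheroids above soft agar with only the albumin and ethanol carrier, 3D_4T1_75 the same spheroids with 75 µM palmitate added, and 2D_4T1_75 monolayers with 75 µM palmitate added. They are called here 3D without palmitate, 3D with palmitate and 2D with palmitate. Monolayers without palmitate were not analysed here, and palmitate could be compared only in spheroids. Serum brings its own fatty acids, so no condition was free of lipid. All libraries come from 1 cell line, and the labels do not say whether the 3 libraries of a condition were separate cultures, so p-values measure the spread between these libraries.

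Fatty acids are broken down as coenzyme A esters. Long chains cannot cross the inner mitochondrial membrane in that form: Cpt1a exchanges coenzyme A for carnitine at the outer membrane, the carrier Slc25a20 moves the acylcarnitine inwards, and Cpt2 restores the ester inside. An acyl-CoA dehydrogenase, a hydratase, a hydroxyacyl-CoA dehydrogenase and a thiolase then remove acetyl-CoA in each turn of the cycle, and the electrons of the first step leave through the electron transfer flavoprotein. Peroxisomes take up very long and branched chains through ABC transporters such as Abcd3, shorten them with their own oxidases, bifunctional enzymes and thiolases, and pass the products on, in part as carnitine esters made by Crot.

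Total counts ranged from 6595514 to 31177756 per library, and the smallest library was replicate 3 of 3D with palmitate. Levels are given as CPM, the counts of a gene scaled by the size of its library after TMM adjustment. The 5 epithelial markers were all detected, with a summed level of 4396 to 4530 CPM in 3D with palmitate, 4463 to 4486 in 3D without palmitate and 3080 to 3295 in 2D with palmitate. The summed fibroblast markers stood at 93.4 to 111.0, 91.7 to 106 and 31.7 to 33.6 CPM in the same order and came almost wholly from Pdgfra, with Lum at 0. Those of leukocytes reached 8.42 to 11.5, 6.94 to 9.26 and 24.4 to 28.1 CPM, nearly all of it Cd68, a lysosomal protein that is not limited to leukocytes, with Adgre1 and Cd3e at 0. Endothelial markers summed to at most 0.579 CPM and adipocyte markers to at most 0.108 CPM in any library. Epithelial, fibroblast and leukocyte sums moved with the culture comparison below, and their part in it was not tested.

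The promoters of Cpt1a, Cpt2 and Slc25a20 are shown because these shuttle genes were 3 of the 6 members called with palmitate below. Each window runs from 250 bases before to 50 bases after the RefSeq transcription start, 5′ to 3′ on the strand of the gene, in build GRCm38.p6, at chr19:3323051-3323350 on the plus strand for Cpt1a, chr4:107923540-107923839 on the minus strand for Cpt2 and chr9:108661886-108662185 on the plus strand for Slc25a20. Capitals mark AGGTCA, the core element of many nuclear receptors, which reads TGACCT where it lies on the other strand.
Cpt1a: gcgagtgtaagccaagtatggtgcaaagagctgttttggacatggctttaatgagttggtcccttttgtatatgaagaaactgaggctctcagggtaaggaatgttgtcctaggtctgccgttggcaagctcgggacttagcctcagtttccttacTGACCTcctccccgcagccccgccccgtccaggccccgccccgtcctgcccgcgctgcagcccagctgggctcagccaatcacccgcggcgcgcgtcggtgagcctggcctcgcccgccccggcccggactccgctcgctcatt
Cpt2: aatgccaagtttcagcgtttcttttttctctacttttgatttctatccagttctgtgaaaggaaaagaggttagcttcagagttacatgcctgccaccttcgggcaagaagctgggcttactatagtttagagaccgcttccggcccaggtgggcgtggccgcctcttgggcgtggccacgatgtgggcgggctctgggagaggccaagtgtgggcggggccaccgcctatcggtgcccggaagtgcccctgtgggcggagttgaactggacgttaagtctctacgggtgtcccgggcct
Slc25a20: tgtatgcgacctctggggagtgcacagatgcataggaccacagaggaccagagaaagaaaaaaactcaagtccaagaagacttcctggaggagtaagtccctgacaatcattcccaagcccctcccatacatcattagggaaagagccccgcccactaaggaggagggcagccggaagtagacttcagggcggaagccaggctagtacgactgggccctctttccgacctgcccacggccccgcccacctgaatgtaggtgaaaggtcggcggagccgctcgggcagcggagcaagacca

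AGGTCA was found once in the Cpt1a window, 94 bases before the start, and in neither of the other windows. Of the 36 members, 31 had a RefSeq promoter, with 32 windows in all. On either strand, 7 of these 32 windows held AGGTCA (21.9%), in Acadm, Acadvl, Cpt1a, Cpt1c, Echs1, Phyh and Scp2, against 16.3% of all 32851 promoter windows of the same length. The direct repeat of this element with 1 base between the copies, read by PPAR receptors, occurred in 0 of 32 windows and in 0.0396% of all. TCAAGGTCA, an extended form of the core element that estrogen-related receptors read, occurred in 0 of 32 and in 0.423% of all. Both longer motifs contain the shorter one. They are so rare over all windows that 0 of 32 cannot set the members apart. Only exact matches within these windows were searched. The Cpt1a, Cpt2 and Slc25a20 windows held 22, 17 and 13 CpG dinucleotides, and the member windows had a median of 17 CpG and 59.5% GC against 7 CpG and 52.7% GC over all windows. All windows include those of genes with too few counts to be tested here. The member windows were not compared with those of the genes tested alone.

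To ask how the pathway differed between spheroids and monolayers, 3D with palmitate was compared with 2D with palmitate, and to ask how it responded to palmitate, 3D with palmitate was compared with 3D without palmitate. The comparisons share the 3 libraries of 3D with palmitate. Of the 36 members 35 had enough counts to be tested. Ehhadh, the peroxisomal bifunctional enzyme induced by PPARα in liver, was not: it had 0 counts in all 3 libraries of 3D without palmitate and in 2 libraries of 3D with palmitate, where a count of 0 allows a level of up to 0.459 CPM in the shallowest of these libraries, and at most 2 counts in any other library. A gene was called at an adjusted p-value under 0.05 (edgeR quasi-likelihood test, Benjamini-Hochberg adjustment over all 12575 genes tested).

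Between 3D and 2D with palmitate 21 of the 35 members were called (60.0%), 10 higher and 11 lower in 3D, beside 68.3% of all genes tested, 34.5% higher and 33.9% lower. The direction split was 13 higher and 8 lower once trends with GC content and length were taken out of each library. The 3 libraries of the groups did not overlap for 22 members, or for 69.4% of all genes. The median log2 difference was 0.07 over members and 0.01 over all genes. The share of members called was close to that of all genes, and the difference was not tested. Members moved in both directions, as all genes did. With palmitate in 3D 6 of the 35 members were called (17.1%), all 6 higher, beside 2.19% of all genes, 1.38% higher and 0.811% lower. The groups did not overlap for 12 members, each of them above its levels without palmitate, against 18.6% of all genes. Here 27 of 35 members had a log2 difference above 0, beside 6564 of all 12575 genes, with a median of 0.12 against 0.01 over all genes.

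**Figure D1:**
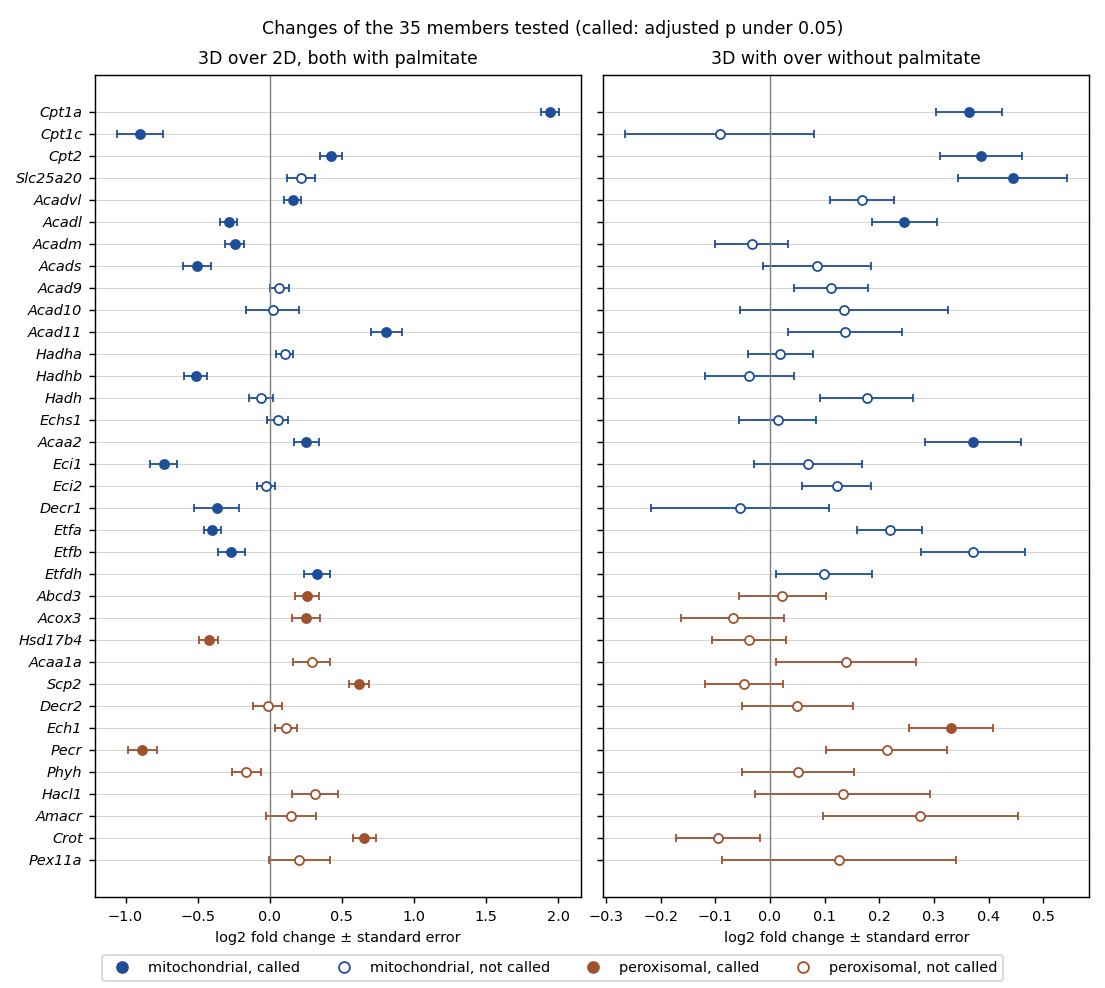
Log2 fold change ± standard error of the 35 members tested, for 3D over 2D with palmitate (left, log2 axis from about −1 to 2) and for 3D with over without palmitate (right, a narrower log2 axis). Blue marks mitochondrial and brown peroxisomal members, filled points are called. Cpt1a stands at 1.94 on the left, and on the right the filled points are Cpt1a, Cpt2, Slc25a20, Acadl, Acaa2 and Ech1.

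The calls were then counted by organelle. In 3D against 2D, 6 of the 22 mitochondrial members were higher and 9 lower, with a median log2 difference of -0.003, while 4 of the 13 peroxisomal members tested were higher and 2 lower, with a median of 0.20. The share called was 68.2% of mitochondrial and 46.2% of peroxisomal members tested, beside 68.3% of all genes (34.5% higher, 33.9% lower, median 0.01). With palmitate 5 of 22 mitochondrial and 1 of 13 peroxisomal members were higher and none was lower, with medians of 0.13 and 0.05. Over all genes 1.38% were higher and 0.811% lower with palmitate, with a median of 0.01. The difference between the organelles was not tested. Cpt1c, Acad11, Eci2, Ech1 and Amacr are also known from another compartment than the one they were placed in here. Without these 5 the medians were 0.02 and 0.25 in 3D against 2D, and 0.14 and 0.05 with palmitate, where 5 of 19 mitochondrial and 0 of 11 peroxisomal members were called.

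Entry into mitochondria is the step that Cpt1a controls. Cpt1a was measured at 343, 354 and 358 CPM in 3D with palmitate, at 269, 266 and 285 CPM in 3D without palmitate and at 93.8, 94.0 and 86.6 CPM in 2D with palmitate. The 3 conditions formed separate groups in that order, with both spheroid conditions far above the monolayers. Its log2 difference was 1.94 ± 0.06 (SE, n = 3 per group) for 3D against 2D with an adjusted p of 3.46e-12 (edgeR), and 0.36 ± 0.06 with palmitate with an adjusted p of 0.00667. Scaled by the length of its exons, Cpt1a was the third highest member in both spheroid conditions, at 81.5 ± 1.85 and 63.3 ± 2.32 CPM per kb (SD, n = 3) with and without palmitate, and the 17th in monolayers at 21.2 ± 0.976 CPM per kb. Above it in both were Acadl and Etfa. It made up 11.5% ± 0.486 of the summed CPM per kb of the mitochondrial members in 3D with palmitate, 10.2% ± 0.377 in 3D without palmitate and 2.95% ± 0.208 in 2D (SD, n = 3).

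Cpt2, which acts on the matrix side, followed a different pattern. It was at 41.9, 38.3 and 43.2 CPM in 3D with palmitate, 32.7, 29.4 and 31.8 CPM in 3D without palmitate and 29.0, 31.7 and 30.7 CPM in 2D. The spheroids without palmitate overlapped the monolayers, and only the spheroids with palmitate stood above. The log2 difference was 0.42 ± 0.08 for 3D against 2D (adjusted p = 0.000158) and 0.39 ± 0.08 with palmitate (adjusted p = 0.0182). The carrier Slc25a20 was at 21.0, 18.3 and 18.2 CPM in 3D with palmitate, 14.6, 12.7 and 15.5 CPM in 3D without palmitate and 16.4, 17.5 and 16.2 CPM in 2D. Spheroids without palmitate lay below monolayers and spheroids with palmitate above both. With palmitate its log2 difference was 0.44 ± 0.10 (adjusted p = 0.0357), and for 3D against 2D it was 0.22 ± 0.10 and missed the threshold (adjusted p = 0.0622, or 0.0372 without replicate 3 of 3D with palmitate). The latter was 0.30 and called with GC and length trends taken out (adjusted p = 0.00650). Without replicate 1 of 3D with palmitate it was 0.12 (adjusted p = 0.331).

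Cpt1c, the isoform of neurons that sits in the endoplasmic reticulum and has little transferase activity, was weakly expressed. Its levels were 3.64, 2.58 and 2.91 CPM in 3D with palmitate, 3.02, 3.81 and 3.42 CPM in 3D without palmitate and 6.37, 5.77 and 5.84 CPM in 2D. It was lower in spheroids, with a log2 difference of -0.90 ± 0.16 (adjusted p = 0.000140), and overlapped between the palmitate groups (-0.09 ± 0.17, adjusted p = 0.895). Its exons overlap those of 6530437J22Rik on the other strand, and whether the counting used strand is not given in the sources used here.

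**Figure D2:**
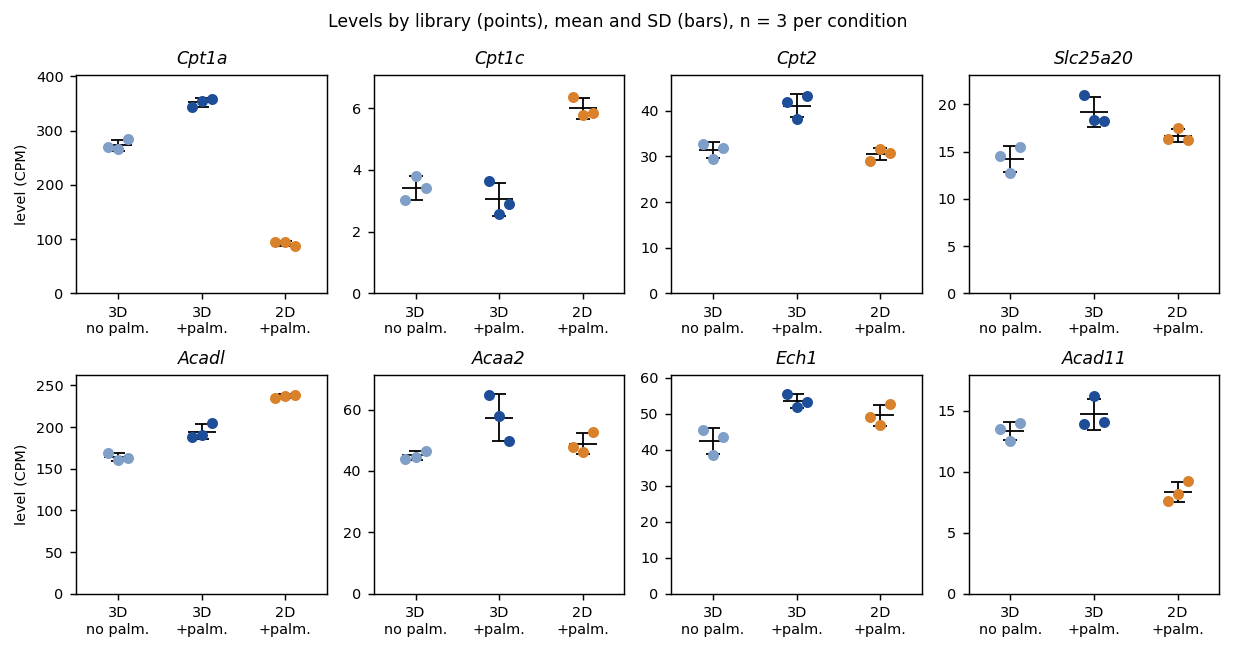
Levels in CPM of the 4 shuttle genes and of Acadl, Acaa2, Ech1 and Acad11 in each library (points), with the mean and SD of 3 libraries per condition (bars), each panel on its own linear axis from 0. Cpt1a and Acad11 separate spheroids from monolayers, Cpt1c does so in the other direction, and in Cpt1a, Cpt2, Slc25a20, Acadl, Acaa2 and Ech1 all spheroids with palmitate lie above those without.

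Ratios within each library compared the shuttle genes with each other. The ratio of Cpt1a to Cpt2, each per kb of exon, was 4.71 ± 0.324 in 3D with palmitate, 4.80 ± 0.246 in 3D without palmitate and 1.65 ± 0.114 in 2D (SD, n = 3). A two-sided exact permutation test of this ratio gave p = 0.1 for 3D against 2D, the smallest that 3 against 3 libraries can give, and p = 0.9 with palmitate. Cpt1a over Slc25a20 was at 7.62 ± 0.763, 7.96 ± 0.580 and 2.26 ± 0.0882 in the same conditions, with exact permutation p-values of 0.1 and 0.6. In both ratios the monolayers lay apart from the spheroids and the palmitate groups overlapped. Cpt1a exceeded Cpt1c 76.4-fold per kb in 3D with palmitate, 52.2-fold in 3D without palmitate and 9.89-fold in 2D.

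**Figure D3:**
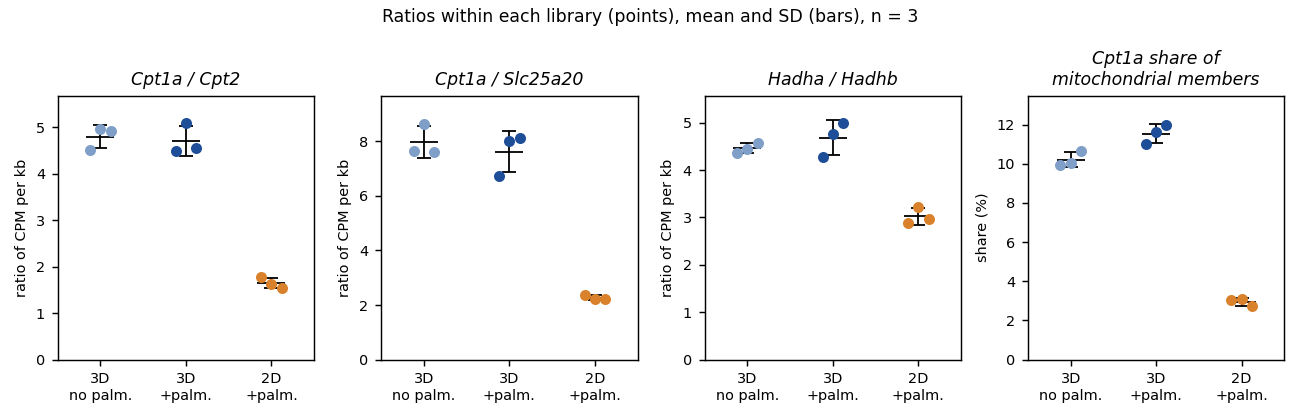
Ratios of CPM per kb within each library (points) with mean and SD of 3 libraries (bars), for Cpt1a over Cpt2, Cpt1a over Slc25a20 and Hadha over Hadhb, and the share of Cpt1a in the summed CPM per kb of the mitochondrial members in percent, all on linear axes from 0. In every panel both spheroid conditions lie above the monolayers, and the palmitate groups overlap in the 3 ratios.

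The acyl-CoA dehydrogenases open each turn of the mitochondrial cycle and differ in the chain length they prefer. Of the 7 members of this class 2 were higher and 3 lower in 3D, beside 34.5% higher and 33.9% lower over all genes. Acadvl, for very long chains, ranged from 76.6 to 81.3 CPM in 3D with palmitate and from 69.5 to 72.9 CPM in 2D (log2 difference 0.16 ± 0.06, adjusted p = 0.0262). This call was lost without replicate 1 or 2 of either condition, at adjusted p-values from 0.0698 to 0.114, and its difference was 0.28 with GC and length trends taken out. Acadl, for long chains, was at 188, 191 and 205 CPM in 3D with palmitate, 169, 160 and 163 CPM in 3D without palmitate and 234, 237 and 239 CPM in 2D. The 3 conditions did not overlap, and monolayers were the highest. Its log2 difference was -0.29 ± 0.06 for 3D against 2D (adjusted p = 0.000537, and -0.11 with GC and length trends taken out) and 0.25 ± 0.06 with palmitate (adjusted p = 0.0459). Per kb of exon Acadl was the highest of all members in every condition.

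Shorter chains are the substrates of Acadm and Acads. Acadm ranged from 62.8 to 72.1 CPM in 3D with palmitate and from 75.8 to 80.1 CPM in 2D (-0.24 ± 0.07, adjusted p = 0.00492), a call that was lost with GC and length trends taken out (-0.10, adjusted p = 0.111). Acads was at 47.3, 40.3 and 34.2 CPM in 3D with palmitate, 36.9, 41.6 and 39.1 CPM in 3D without palmitate and 57.6, 56.1 and 62.9 CPM in 2D. All 6 spheroid libraries were below the monolayers (-0.50 ± 0.10, adjusted p = 0.000317).

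Acad11 moved the other way. It is a dehydrogenase placed in peroxisomes as well as mitochondria, and was at 13.9, 16.2 and 14.1 CPM in 3D with palmitate, 13.5, 12.5 and 14.0 CPM in 3D without palmitate and 7.61, 8.17 and 9.22 CPM in 2D. It was higher in both spheroid conditions, with a log2 difference of 0.81 ± 0.11 (adjusted p = 1.15e-05) and none that passed with palmitate (0.14 ± 0.10, adjusted p = 0.543). Acad9, best known as an assembly factor of respiratory complex I, stayed between 56.9 and 66.2 CPM in all 9 libraries, and Acad10 between 2.14 and 4.56 CPM, and neither was called in either comparison. Acad10 shared 17.1% of its 50-base words with other genes, chiefly its neighbour Acad12, so its reads could have been split between them. Acad11 exons overlap those of Ackr4 on the other strand.

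The later steps of the mitochondrial cycle are carried by the trifunctional protein for long chains, with Hadha as its alpha and Hadhb as its beta subunit, and by Echs1, Hadh and Acaa2 for shorter ones. Hadha and Hadhb lie head to head on chromosome 5 and start 85 bases apart, at chr5:30155163-30155247 of GRCm38.p6, shown on the plus strand because one stretch precedes both genes.
Hadha and Hadhb: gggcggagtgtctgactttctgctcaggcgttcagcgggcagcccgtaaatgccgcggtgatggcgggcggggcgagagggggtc

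This stretch held 9 CpG dinucleotides. Hadhb was at 21.2, 19.7 and 20.2 CPM in 3D with palmitate, 21.2, 21.1 and 20.7 CPM in 3D without palmitate and 30.9, 27.2 and 29.9 CPM in 2D. It was lower in both spheroid conditions (-0.51 ± 0.08, adjusted p = 4.64e-05). Hadha ranged from 175 to 195 CPM in 3D with palmitate and from 169 to 172 CPM in 2D, and its log2 difference of 0.10 ± 0.06 missed the threshold (adjusted p = 0.139). The ratio of Hadha to Hadhb per kb was 4.68 ± 0.369 in 3D with palmitate, 4.46 ± 0.108 in 3D without palmitate and 3.02 ± 0.173 in 2D (SD, n = 3), with exact permutation p-values of 0.1 for culture, the smallest possible, and 0.4 for palmitate. Hadhb shared 19.7% of its 50-base words with other genes, chiefly Gm13910 and Gm9108, so its reads could have been dropped or split in counting, and Hadha overlaps Garem2 on the other strand. Neither subunit was called with palmitate (0.02 ± 0.06 for Hadha, -0.04 ± 0.08 for Hadhb).

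Acaa2, the thiolase that closes the cycle for shorter chains, was at 64.7, 57.9 and 49.6 CPM in 3D with palmitate, 43.8, 44.6 and 46.6 CPM in 3D without palmitate and 47.9, 46.2 and 52.6 CPM in 2D. Spheroids with palmitate were above those without and spread more widely than either other condition, so that one of them fell among the monolayers. The log2 difference was 0.37 ± 0.09 with palmitate (adjusted p = 0.0431) and 0.25 ± 0.09 for 3D against 2D (adjusted p = 0.0183). Without replicate 1 of 3D with palmitate, the adjusted p for 3D against 2D was 0.120, and without replicate 1 or 2 of 2D it was 0.0662 or 0.0957. With GC and length trends taken out this difference was 0.46. Echs1, between 48.2 and 57.7 CPM in all libraries, and Hadh, between 82.5 and 106 CPM, were called in neither comparison with all libraries. Without replicate 3 of 3D with palmitate, Hadh was called with palmitate (0.27 against 0.18 with all libraries, adjusted p = 0.0130).

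Taking entry against cycle over both organelles, 3 of 5 entry members were higher and 1 lower in 3D against 2D, with a median log2 difference of 0.26, and 5 of 16 cycle members tested were higher and 5 lower, with a median of 0.06, beside 34.5% higher and 33.9% lower over all genes. With palmitate 3 of 5 entry and 2 of 16 cycle members were higher, with medians of 0.36 and 0.10, beside 1.38% higher over all genes. In mitochondria alone, the palmitate median was 0.37 over 4 shuttle members and 0.12 over 12 cycle members, beside 0.01 over all genes. These are counts of few genes, and the difference between the steps was not tested. Cpt1c, the entry member called lower in 3D, and the cycle member Acad11 are also known from another compartment. The counts by step were not repeated without them.

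Unsaturated chains need auxiliary enzymes. The isomerase Eci1 was at 26.7, 26.3 and 20.5 CPM in 3D with palmitate, 24.9, 24.4 and 22.3 CPM in 3D without palmitate and 41.4, 38.9 and 45.1 CPM in 2D. Every spheroid library was below every monolayer library, and Eci1 had the lowest log2 difference among the mitochondrial members after Cpt1c (-0.74 ± 0.10, adjusted p = 8.09e-06, and -0.47 with GC and length trends taken out). The dienoyl-CoA reductase Decr1 was low throughout, from 4.20 to 6.995 CPM, and its groups overlapped (-0.37 ± 0.16, adjusted p = 0.0494). Without replicate 1 of 3D with palmitate its difference was -0.14 (adjusted p = 0.460), and without replicate 2 of 3D with palmitate or replicate 1 or 3 of 2D the adjusted p was 0.0501, 0.0993 or 0.135. The isomerase Eci2 ranged from 44.6 to 51.8 CPM and was not called. None of the 3 was called with palmitate.

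The electron transfer flavoprotein, made of Etfa and Etfb, hands electrons from the dehydrogenases to its oxidoreductase Etfdh. Etfa was at 119, 120 and 119 CPM in 3D with palmitate, 101, 104 and 103 CPM in 3D without palmitate and 158, 150 and 164 CPM in 2D. The order of the conditions was that of Acadl, with no overlap. Etfa was lower in 3D than in 2D (-0.40 ± 0.06, adjusted p = 2.80e-05, and -0.14 with GC and length trends taken out), and its difference of 0.22 ± 0.06 with palmitate missed the threshold (adjusted p = 0.0713, or 0.0202 without replicate 3 of 3D with palmitate). Etfb ran parallel, from 35.1 to 45.9 CPM in 3D with palmitate, 30.6 to 34.2 CPM in 3D without palmitate and 46.5 to 53.6 CPM in 2D (-0.27 ± 0.09, adjusted p = 0.0190, and 0.37 ± 0.10 with palmitate, adjusted p = 0.0590, or 0.00280 without that replicate). Of its 50-base words 44.8% lie in the overlapping model Gm45233, and its difference for 3D against 2D was 0.05 once trends with GC content and length were taken out of each library. Without replicate 2 of 3D with palmitate or replicate 3 of 2D the adjusted p of that difference was 0.0626 or 0.0893. Etfdh went the other way from its partners, at 46.7 to 61.6 CPM in 3D with palmitate and 40.3 to 42.0 CPM in 2D (0.33 ± 0.09, adjusted p = 0.00442, and 0.22 without replicate 3 of 3D with palmitate).

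Among the peroxisomal members, the transporter Abcd3, which brings branched and long dicarboxylic chains into the organelle, was at 95.9, 107 and 122 CPM in 3D with palmitate, 106, 103 and 108 CPM in 3D without palmitate and 92.0, 93.1 and 84.2 CPM in 2D. Spheroids were above monolayers in all libraries (0.26 ± 0.08, adjusted p = 0.0103), although the adjusted p was 0.0509 without replicate 3 of 2D and the difference 0.17 without replicate 3 of 3D with palmitate. It was not called with palmitate. The oxidase Acox3, which acts on branched chains, ranged from 11.9 to 14.4 CPM in 3D with palmitate and from 10.9 to 11.7 CPM in 2D (0.25 ± 0.10, adjusted p = 0.0305), a call that was lost without any 1 library of 2D or replicate 1 or 2 of 3D with palmitate (adjusted p from 0.0505 to 0.143).

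The bifunctional enzyme Hsd17b4 and the sterol carrier and thiolase gene Scp2 moved apart. Hsd17b4 ranged from 47.1 to 52.4 CPM in 3D with palmitate and from 64.8 to 68.8 CPM in 2D (-0.42 ± 0.07, adjusted p = 5.27e-05). Scp2 was at 51.4, 57.0 and 56.2 CPM in 3D with palmitate, 56.4, 52.6 and 60.2 CPM in 3D without palmitate and 35.3, 36.3 and 34.98 CPM in 2D. All 6 spheroid libraries exceeded the monolayers (0.62 ± 0.07, adjusted p = 2.96e-06). Scp2 shared 29.7% of its 50-base words with other genes, chiefly the pseudogene Scp2-ps2. The thiolase Acaa1a, from 22.7 to 33.7 CPM in 3D with palmitate and 21.8 to 27.9 CPM in 2D, missed the threshold (0.29 ± 0.13, adjusted p = 0.0584, or 0.00201 without replicate 3 of 3D with palmitate and 0.0252 without replicate 3 of 2D). Its adjusted p was 0.0367 with GC and length trends taken out and 0.0152 without the filter on low counts. Without replicate 1 of 3D with palmitate its difference was 0.17 (adjusted p = 0.270). Acaa1a shared 12.9% of its 50-base words, chiefly with Acaa1b.

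Crot, the octanoyltransferase that hands shortened chains to carnitine for export, was at 46.7, 49.8 and 57.4 CPM in 3D with palmitate, 54.9, 51.8 and 55.3 CPM in 3D without palmitate and 30.8, 32.2 and 33.1 CPM in 2D. All 6 spheroid libraries lay above the monolayers. The log2 difference for 3D against 2D was 0.66 ± 0.08 (adjusted p = 3.84e-06), and its difference with palmitate was the lowest of all 35 members (-0.09 ± 0.08, adjusted p = 0.576). Pecr, a peroxisomal enoyl-CoA reductase that acts in phytol breakdown and chain elongation, had the opposite pattern, at 9.86, 9.34 and 11.3 CPM in 3D with palmitate, 9.26, 8.59 and 7.97 CPM in 3D without palmitate and 19.1, 17.4 and 19.0 CPM in 2D. Monolayers held the higher level in every library (-0.88 ± 0.10, adjusted p = 2.58e-06).

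Ech1, a dienoyl-CoA isomerase known from peroxisomes and mitochondria, was the peroxisomal member called with palmitate. It was at 55.5, 51.8 and 53.3 CPM in 3D with palmitate, 45.5, 38.6 and 43.6 CPM in 3D without palmitate and 49.0, 46.8 and 52.8 CPM in 2D. Spheroids without palmitate were lowest, and those with palmitate overlapped the monolayers. The log2 difference was 0.33 ± 0.08 with palmitate (adjusted p = 0.0416) and 0.12 ± 0.08 for 3D against 2D (adjusted p = 0.194). With GC and length trends taken out, the latter was 0.35 and called (adjusted p = 9.04e-05). The peroxisomal reductase Decr2 stayed between 15.3 and 18.8 CPM and was not called.

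In alpha-oxidation, which removes a single carbon from phytanic acid, no member was called with all libraries. Phyh, the hydroxylase of the first step, ranged from 45.2 to 64.8 CPM over all libraries, and its log2 difference for 3D against 2D was -0.16 ± 0.10 (adjusted p = 0.163). It was called as lower without replicate 3 of 3D with palmitate (-0.27, adjusted p = 0.0109) and without the filter on low counts (adjusted p = 0.0457), and stood at 0.06 with GC and length trends taken out. The lyase Hacl1 was at 4.12, 4.56 and 4.90 CPM in 3D with palmitate, 4.16, 4.65 and 3.31 CPM in 3D without palmitate and 3.23, 3.52 and 3.79 CPM in 2D. Spheroids with palmitate lay just above the monolayers, but the difference missed the threshold (0.31 ± 0.16, adjusted p = 0.0960, or 0.0424 with GC and length trends taken out), and 28.4% of its 50-base words occur in other models, chiefly Gm49387. The racemase Amacr, from 2.58 to 4.29 CPM, had a log2 difference of 0.28 ± 0.18 with palmitate (adjusted p = 0.462). Pex11a, which takes part in peroxisome division, was at 3.02, 3.34 and 1.68 CPM in 3D with palmitate, 2.74, 2.97 and 2.22 CPM in 3D without palmitate and 2.23, 2.82 and 2.27 CPM in 2D, and its groups overlapped in both comparisons (0.20 ± 0.21, adjusted p = 0.403 for 3D against 2D).

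Summed levels were taken per organelle. Such sums weigh the members of highest level most, in both spheroid conditions Acadl, Etfa and Cpt1a, and are not separate from the changes given above. The mitochondrial members summed to 693 to 721 CPM per kb in 3D with palmitate, 613 to 626 in 3D without palmitate and 701 to 738 in 2D. The sum without palmitate was thus below both other conditions, which overlapped. The peroxisomal members summed to 195 to 212, 182 to 197 and 191 to 202 CPM per kb in the same order, and overlapped throughout.

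Other genes of the 2 organelles were read beside the members, from lists chosen by function. Over all genes 34.5% were higher and 33.9% lower in 3D against 2D, and 2.19% were called with palmitate. An unadjusted edgeR p under 0.05 with palmitate was reached by 2170 of all 12575 genes. Of 15 mitochondrial housekeeping genes, including the import pore gene Tomm40 (log2 difference -1.01 ± 0.12), the import motor gene Timm44 (-0.96 ± 0.06) and citrate synthase Cs, all 15 were lower in 3D than in 2D, with a median of -0.65, against -0.003 over the mitochondrial members. With palmitate 0 of 15 were called (4 at an unadjusted p under 0.05), and their median of 0.12 was close to the 0.13 of the mitochondrial members. Of 17 genes of peroxisome biogenesis 10 were higher and 4 lower in 3D, with a median of 0.27, led by Pxmp4 (1.14 ± 0.14) and Pex26 (0.73 ± 0.11) above and Pex5 (-0.60 ± 0.08) and Pex10 (-0.53 ± 0.15) below. None of them was called with palmitate by edgeR (1 at an unadjusted p under 0.05), with a median of 0.02.

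**Figure D4:**
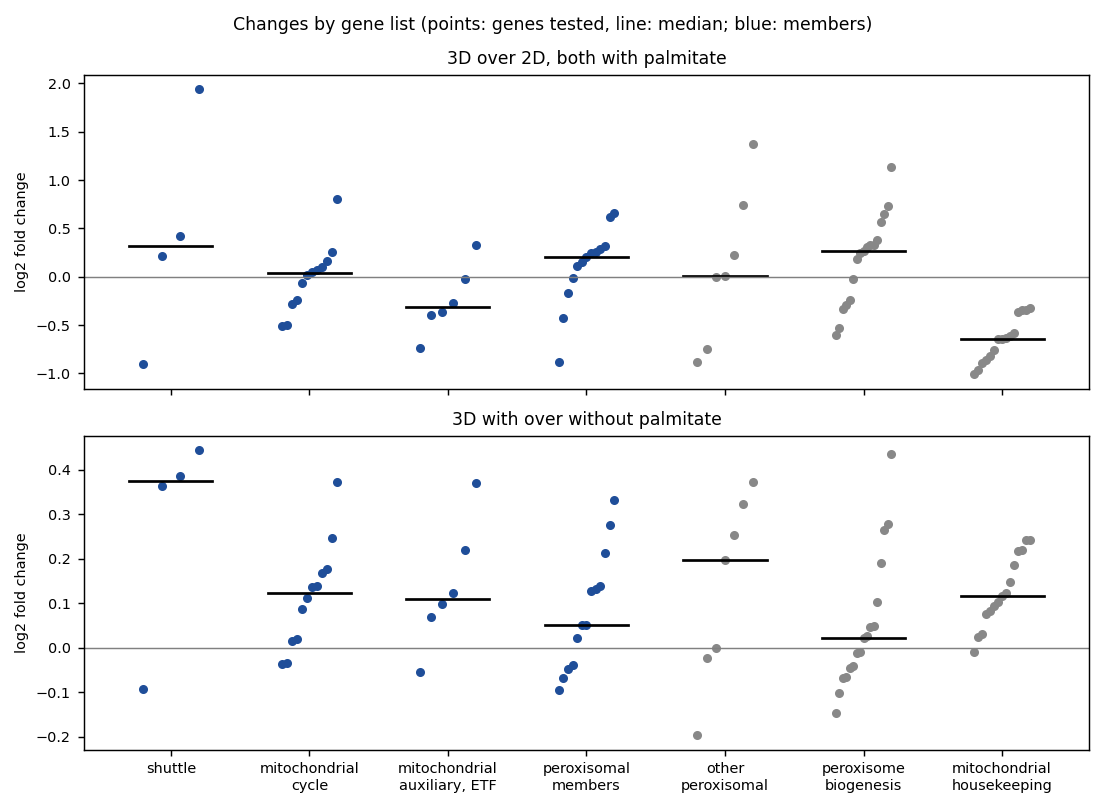
Log2 fold changes of the genes tested in each list (points) and their median (line), for 3D over 2D with palmitate (top) and 3D with over without palmitate (bottom, a narrower axis), with members in blue and other lists in grey. The 15 mitochondrial housekeeping genes all lie below 0 in the top panel, with a median of -0.65.

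Peroxisomal oxidation genes outside the members included larger rises in 3D than any peroxisomal member. Of 7 tested 2 were higher and 2 lower in 3D, beside 34.5% higher and 33.9% lower over all genes. The bile acid and branched chain oxidase Acox2 was at 1.37 ± 0.10. Cat, the catalase that removes the hydrogen peroxide of the oxidases, was at 0.74 ± 0.06. The coenzyme A hydrolases Nudt19 and Nudt7 were at -0.88 ± 0.08 and -0.75 ± 0.16. None of the 7 was called with palmitate by edgeR (3 at an unadjusted p under 0.05, beside 2170 of all 12575 genes). Among 7 further mitochondrial oxidation and carnitine genes, palmitate went with a higher level of Aldh9a1, an enzyme of carnitine synthesis (0.36 ± 0.06, adjusted p = 0.0108), and a lower level of Acadsb, the short branched chain dehydrogenase of isoleucine breakdown (-0.44 ± 0.09, adjusted p = 0.0269). Acadsb was higher in 3D than in 2D (0.60 ± 0.09, and 0.37 with GC and length trends taken out), and Acad8 (-0.40 ± 0.10) and Hsd17b10 (-0.18 ± 0.07) were lower. Hsd17b10 lost its call without replicate 2 of 3D with palmitate (adjusted p = 0.127) or replicate 1 or 3 of 2D (0.0550 and 0.101) and turned to 0.12 once trends with GC content and length were taken out. With palmitate the adjusted p of Acadsb was 0.0526 to 0.129 without any 1 library other than replicate 3 of 3D with palmitate, and that of Aldh9a1 was 0.0541 to 0.0708 without any 1 library of 3D without palmitate or replicate 2 of 3D with palmitate.

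Of 15 known regulators of these genes 10 were tested, and Ppara, Pparg, Ppargc1a, Hnf4a and Prkaa2 had too few counts. The PPAR gene Ppard was tested. It was at 236, 196 and 185 CPM in 3D with palmitate, 194, 208 and 189 CPM in 3D without palmitate and 102, 109 and 112 CPM in 2D. In 3D against 2D 5 of the 10 were higher and 2 lower, beside 34.5% higher and 33.9% lower over all genes. The rises were led by the corepressor Nrip1 (2.40 ± 0.16) and malonyl-CoA decarboxylase Mlycd (1.17 ± 0.17), whose enzyme removes the inhibitor of Cpt1a. The coactivator Ppargc1b (-1.10 ± 0.17) and Esrra (-0.30 ± 0.12) were lower. Esrra was no longer called without replicate 2 or 3 of either condition (adjusted p from 0.0549 to 0.116) or with GC and length trends taken out (0.0799), and was at -0.48 without replicate 1 of 3D with palmitate. With palmitate none was called by edgeR (2 at an unadjusted p under 0.05, beside 2170 of all 12575 genes).

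The palmitate calls rested on small differences and on few libraries. The number of members called, 6 with all libraries, was 2 without replicate 1, 0 without replicate 2 and 1 without replicate 3 of 3D without palmitate, and 3, 2 and 10 without replicates 1, 2 and 3 of 3D with palmitate, the last being the shallowest library. Over all genes 275 were called with all libraries, and 93, 75, 71, 148, 78 and 1901 in the same order. The palmitate calls of Hadh, Etfa and Etfb without that shallowest library come from the fit with 1901 genes called. Cpt1a had an adjusted p of 0.0521 without replicate 2 of 3D without palmitate and Cpt2 0.0959 and 0.0769 without replicates 2 and 3 of that condition. For Slc25a20, Acaa2 and Ech1 the adjusted p lay between 0.0696 and 0.179 without any 1 of the 3 libraries of 3D without palmitate or replicate 1 or 2 of 3D with palmitate, and for Acadl between 0.109 and 0.178 without any 1 of the former or replicate 2 of the latter. The log2 differences of these 6 genes kept their sign throughout, between 0.21 and 0.50 over all 16 alternatives. The ribosomal RNA precursor Rn45s took 1.77% to 2.77% of counts in 3D without palmitate, 1.81% to 5.38% in 3D with palmitate and 2.46% to 3.49% in 2D, and with this share as a covariate 0 of the members were called with palmitate.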

How the data were processed

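RNA was taken from 4T1 cells with TRIzol, and poly(A) libraries were made with a stranded kit. Per the study's methods and processing notes, the authors cleaned single-end 50 bp reads (fastq-mcf), looked at their quality (FastQC 0.11.9), placed them on GRCm38 (HISAT2 2.1.0) and counted reads per gene with HTSeq. The annotation release and strand setting are not given in the sources used here. The deposited values are raw counts per gene, without normalization. Libraries were grouped by the sample titles. Counts were fitted in R 4.3.3 with edgeR 4.0.16 (filterByExpr, TMM, quasi-likelihood, all 9 libraries, condition as the only term), and genes with a Benjamini-Hochberg adjusted p under 0.05 over all 12575 genes tested were called. The standard error was taken as the size of the log2 difference over the root of its F statistic. No 2 libraries of a condition were duplicates. The chi-square per gene was 16.4 to 19.7 between libraries of 3D with palmitate, 4.85 to 7.37 in 3D without palmitate and 3.90 to 9.30 in 2D. Libraries of 3D with palmitate, which both comparisons share, thus differed most from each other, while the fit shared its estimate of spread over all 9 libraries.

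Exon lengths and overlaps came from GENCODE on GRCm38, where 23376 of 24421 names matched by symbol and 669 by a single synonym, promoters from RefSeq. The share of 50-base words was taken over all annotated transcripts of a gene. The members and the other lists were chosen with earlier results of these data known, so no set test was run. Library values were given for the shuttle genes, for members called with palmitate, for the 5 largest rises and falls called in 3D against 2D and for the member of smallest p in each list. Of genes that are no members, those called with palmitate and the 2 largest rises and falls per list were named. Cs was added as an example after its values were seen, and so was Ppard, because other PPAR genes had too few counts. Some further peroxisomal genes are not reported here. Same-numbered libraries did not deviate together (correlations from -0.24 to 0.15), so numbers were not used as pairs. Counts were simulated with 200 genes changed 2-fold. The test recovered 184 with 11 false calls of 12421 genes for the culture comparison and 185 with 15 of 12439 for palmitate. Recovery of smaller differences was not tested, and all member differences with palmitate were smaller, with a log2 difference of at most 0.44. Recovery where most genes differ, as in 3D against 2D with 68.3% called, was not tested either. Each simulated gene had the same spread in all conditions, so the wider spread within 3D with palmitate was not covered. Alternatives were RLE scaling, library totals only, no filter, at least 10 counts in every library, the 2 groups alone, a replicate block, DESeq2 1.42.0 on 9 or on the 2 groups' libraries, the Rn45s share as a covariate, removal of the GC and length trend (splines with 4 degrees of freedom), a minimum absolute log2 fold change of 0.5, and leaving out each library.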

Additional observations from a re-analysis of the deposited data

How the results depend on the processing

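In 3D against 2D, the split of 10 higher and 11 lower members became 13 and 8 once GC and length trends were taken out. There 14 of the 21 member calls held under all 16 alternatives and 7 were lost in some (Acadvl, Acadm, Acaa2, Decr1, Etfb, Abcd3 and Acox3). When a log2 difference of at least 0.5 in either direction was also asked for, 9 members stayed called. Etfb turned to 0.049, Phyh, not called, to 0.0592 and Hsd17b10, which is no member, to 0.119 with the GC and length trend removed. Without the 5 members known from another compartment the peroxisomal median was 0.25. With palmitate 0 of the 6 calls held under all 16. The number of members called, 6 as reported and all higher, was 0 with that minimum of 0.5, 2 with library totals only, 1 with the 2 groups alone, 2 with DESeq2 on the 2 groups, 0 with the Rn45s covariate, and 0 to 10 with 1 library left out. With RLE scaling 5 members were called, with at least 10 counts in every library 4, and without the filter 6. DESeq2 on 9 libraries called 8 members, beside 399 of all genes, and removal of the GC and length trend also gave 8. Over all genes, 275 calls became 617 without the filter, 77 with the 2 groups alone, 182 with DESeq2 on them, 44 with the Rn45s covariate, 983 with the GC and length trend removed, and 71 to 1901 with 1 library left out, the highest without replicate 3 of 3D with palmitate. The replicate block gave 111 genes and 1 member with palmitate. With palmitate 15 of the 29 members not called turned sign in some alternative. Of those whose palmitate values are given, Hadha was -0.00504 with library totals only, -0.0031 without the filter and between -0.0253 and 0.0517 with 1 library left out, Hadhb was 0.0694 with the GC and length trend removed, and Cpt1c lay between -0.33 and 0.0205 with 1 library left out. The cause of these changes was not tested. Scaling moved the median of all genes by less than 0.1 on the log2 scale. Depth limits Ehhadh, Cpt1c, Acad10, Amacr, Hacl1 and Pex11a most, since their counts are the lowest.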
